A study of Mus musculus with 15 samples.

Results

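Skin macrophages of 2 populations were compared for how they responded to the same wound: resident nerve-associated macrophages and interstitial macrophages of the mouse ear. The quantity examined was the difference between both injury responses, (injsNAM - sNAM) - (injIM - IM), taken for every gene from 12 of the 15 libraries of the series, with 3 libraries in each of 4 groups. IM and injIM are interstitial macrophages of the unpunched right and the punched left ear, and sNAM and injsNAM are the libraries titled as nerve-associated macrophages without and after injury. The remaining 3 libraries, of nerve-associated macrophages recruited after injury, entered only the estimate of the spread.

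Every group came from mice of the kind CX3CR1-creERT2/gfp R26-tdT/+ (the genotype field spells it Cxcr1), in which GFP and a tamoxifen-inducible Cre recombinase both sit at the Cx3cr1 locus and Cre turns on tdTomato. The labels give no age. All groups shared the tamoxifen treatment, given 3 weeks before the punch. The ears were harvested 10 days after punching. Cells were sorted as CD11b+ CD64+ Lin-, with GFP-/Tomato- cells as interstitial and GFP+/Tomato+ cells as resident nerve-associated macrophages, so the second population is one that had been marked through Cx3cr1 before the wound. The reporter tag of the labels goes with the ear and goes against the gates (injIM carries GFP+/Tomato+ and sNAM carries GFP-/Tomato-), so groups were taken from the titles. The material came from 3 mice, the labels do not tie a library to a mouse, and p-values treat libraries as independent and measure only the spread between them.

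Interstitial macrophages of the skin lie in the dermal connective tissue and along vessels, take up debris and supply chemokines, while nerve-associated macrophages lie along the axon bundles and survey the nerve. After a wound, skin macrophages pass from an early phase rich in neutrophil-attracting chemokines and interleukin 1 to a later phase of debris clearance, with lysosomal proteases, lipid export and matrix turnover. Whether both populations make that passage alike is the question that the difference of responses addresses.

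The libraries of the populations differed in quality, and this bears on every comparison below. Recovered depth was 20619909 to 23794162 reads in IM, 20397849 to 21931446 in injIM, 5636251 to 18632984 in sNAM and 16889283 to 19520105 in injsNAM. The share of the 8656 tested genes with no read was counted in each library by itself, and it was at most 0.277% in the IM and injIM libraries. It was 11.6%, 25.8% and 3.89% in sNAM replicates 1, 2 and 3 and 4.26%, 6.77% and 8.79% in injsNAM replicates 1, 2 and 3. Replicates correlated at 0.966 to 0.983 in IM and injIM and at 0.644 to 0.776 in sNAM and injsNAM. Macrophage markers were present throughout except Aif1, which had no read in any of the 12 libraries. The list of 14, including Adgre1, Csf1r and C1qa, summed to 26957 to 35877 CPM (reads scaled to a common library total). Dendritic cell markers, 13 genes including Flt3 and Ccr7, summed to 3187, 1906 and 2399.7 CPM in sNAM replicates 1, 2 and 3, to 1003, 799 and 474 in injsNAM, to 576, 283 and 646 in IM and to 269, 187 and 111 in injIM. That list was thus higher in each unpunched group than in its punched group without overlap, and higher in sNAM than in every other group. In the interstitial libraries the sum lay mainly in Cd209a. In normalized counts (explained below), Cd209a measured 8134, 3384 and 9820 in IM and 3573, 2228 and 1047 in injIM. Flt3 was low there and overlapped, at 31.2, 26.3 and 10.4 in IM and 29.6, 85.0 and 19.0 in injIM. In bulk RNA, fewer cells of a type and less RNA per cell cannot be told apart.

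No gene differed in its response between the populations after correction: 0 of 8656 genes (0.0%) passed an adjusted p of 0.05 by limma. At an unadjusted p under 0.05 there were 444 (5.13%), 319 of them (3.69%) with the more positive response in nerve-associated macrophages and 125 (1.44%) with the more positive response in interstitial macrophages. Values here are normalized counts (the read counts divided by 1 factor per library), and log2 differences are on the log2(value + 100) scale, which understates the change of low genes. The interstitial response alone gave 708 called genes (8.18%), 359 higher (4.15%) and 349 lower (4.03%) in injIM, and the nerve-associated response alone gave 0 (0.0%), with 586 genes (6.77%) at an unadjusted p under 0.05. For the nerve-associated response, edgeR called 111, limma with 1 pooled spread 363 and DESeq2 1862, where the same fits called 3, 18 and 80 genes in the interstitial response, so the order of the populations by number of calls turned with the tool. That 708 genes passed in one population and 0 in the other does not show that the responses differ, since the difference itself passed for no gene. The median standard error was 0.20 log2 units for the interstitial response, 0.75 for the nerve-associated response and 0.78 for the difference, so that the 95% interval of a difference typically reached 1.63 log2 units to each side. A difference below about that size would typically not reach an unadjusted p of 0.05. A call after correction over 8656 genes took a larger difference still. Tlr7, with an SE of 0.78, differed by 3.48 and did not pass (adjusted p = 0.485 by limma). The count for the difference rested on the tool: edgeR on the recovered reads called 7 genes, a limma fit with 1 spread for all groups called 4, a fit without the filter on low values called 6 and DESeq2 called 803, of which 641 had no read in at least 2 libraries of sNAM or of injsNAM. No library, when left out, raised the limma count above 0. The interstitial count moved to 418, 399 and 430 without IM replicate 1, IM replicate 3 and injIM replicate 1.

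The responses pointed the same way for most genes that the interstitial macrophages changed. Of the 708 called genes, 524 (74.0%) had the same sign in the nerve-associated response, against 4987 of all 8656 (57.6%), and of the 214 called genes that changed by 1 log2 unit or more, 176 (82.2%) did. Across genes, which are not independent replicates, the log2 differences of both responses correlated at 0.60 over the called genes and at 0.26 over all tested genes. Within the genes called higher the correlation was 0.27, and within those called lower 0.32. The value of 0.60 thus comes largely from the direction of the called genes and less from the size of their responses. The share of called genes with the same sign ranged from 67.1% without sNAM replicate 3 to 81.4% without sNAM replicate 2, the library with the most genes at no read.

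**Figure D1:**
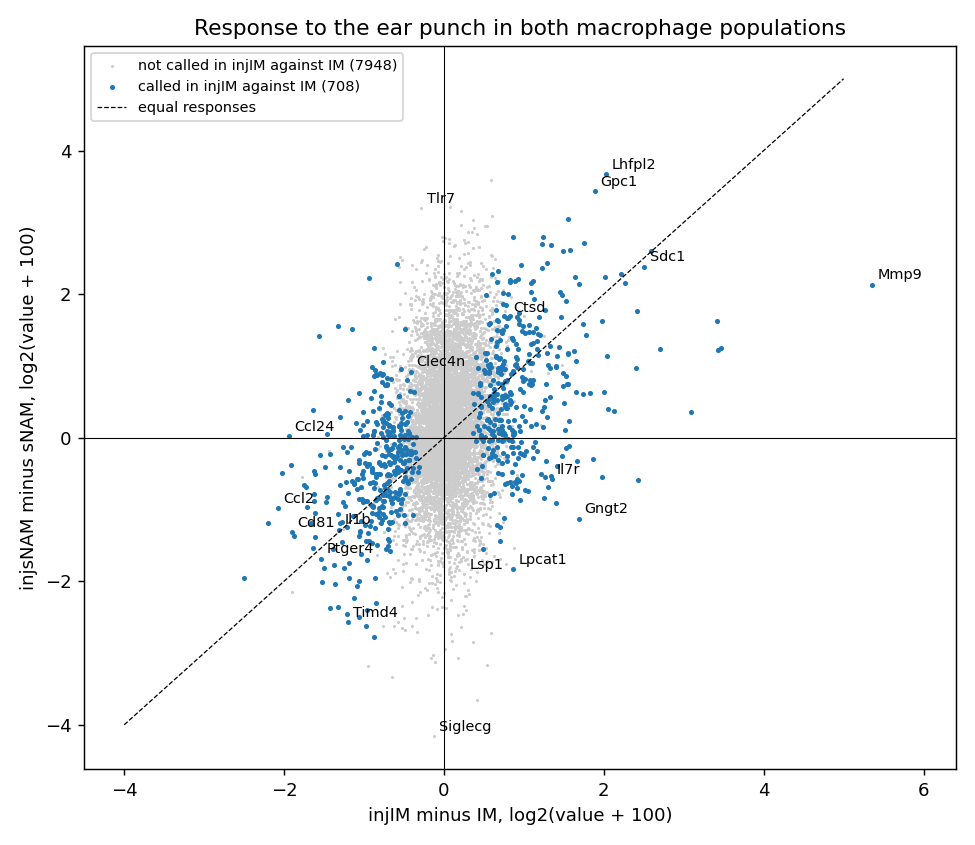
Log2 difference of punched against unpunched skin for each of 8656 genes, interstitial macrophages (injIM against IM) on the horizontal axis and resident nerve-associated macrophages (injsNAM against sNAM) on the vertical axis, with the 708 genes called in the interstitial response marked. Of these, 524 lie in the 2 quadrants of equal sign, and the vertical spread is wider than the horizontal one.

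A stricter description is whether the 3 punched libraries lay entirely above or below the 3 unpunched ones, without overlap. Among the 359 genes called higher in injIM, the injsNAM libraries lay above all sNAM libraries for 85 (23.7%) and below them for 10 (2.79%), against 7.35% above and 4.69% below among all tested genes. Among the 349 genes called lower, injsNAM lay below all sNAM libraries for 77 (22.1%) and above them for 7 (2.01%). Genes with same-direction separation thus numbered 162 and genes with opposite separation 17. With 1 nerve-associated library left out in turn, the same-direction number was 189 to 252, highest without sNAM replicate 2, and the opposite number 21 to 51, highest without sNAM replicate 3, and the shares over all tested genes were 11.8% to 16.2% above and 7.41% to 10.4% below. The median called-higher gene differed by 0.85 log2 units in interstitial and 0.63 in nerve-associated macrophages, and the median called-lower gene by -0.77 and -0.42. Choosing genes by their interstitial response tilts these medians, because a gene called there has its interstitial value on the far side of its error.

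**Figure D2:**
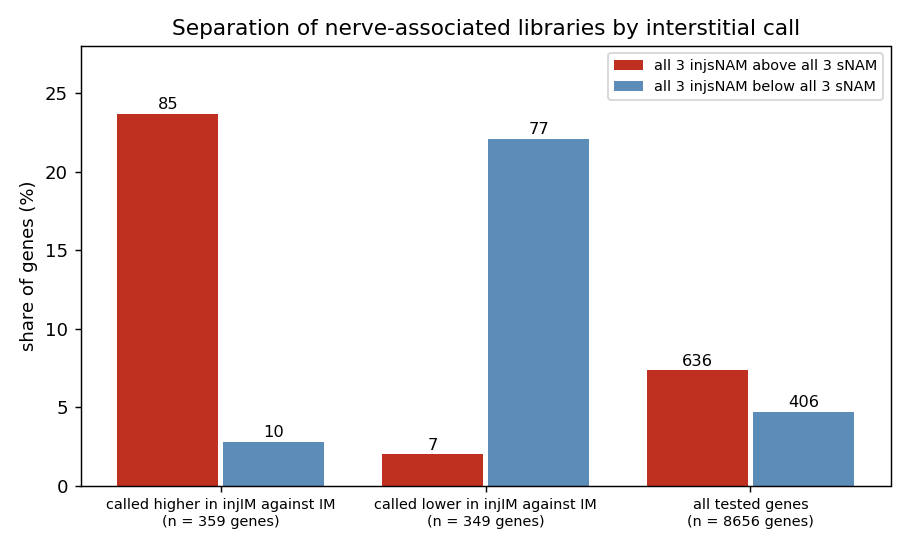
Percent of genes whose 3 injsNAM libraries lay entirely above or entirely below the 3 sNAM libraries, for all tested genes and for genes called higher or lower in injIM against IM. Genes called higher lay above in 23.7% and below in 2.79%, and genes called lower lay below in 22.1% and above in 2.01%.

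The mean of both responses was then tested: 17 genes (0.196%) were called by limma in the mean response, 12 higher (0.139%) and 5 lower (0.0578%). With a pseudocount of 10 or 1 in place of 100 none of them was called, Lhfpl2 included (0 genes in all, 849 and 812 at an unadjusted p under 0.05). These 17 were picked out after their values were seen, apart from those that lie in a gene list or a named set, and 15 of them were also called in the interstitial response alone. A call of the mean does not show that each population changed, and no nerve-associated response passed on its own. Lhfpl2 was the one gene of the 17 that stayed called without any single library, and it is a tetraspan membrane protein gene (chromosome 13, 94057152 to 94195410). It measured 2107, 2410.4 and 2344 normalized counts in IM, 10079.5, 10164 and 8715 in injIM, 1550.2, 2.91 and 864 in sNAM and 7582, 5413 and 7944 in injsNAM. Every punched library exceeded every unpunched library in both populations, and sNAM replicate 2 was nearly without reads of the gene. Its log2 difference was 2.03 (SE 0.17) in interstitial and 3.67 (SE 0.67) in nerve-associated macrophages, with adjusted p = 0.00103 for the mean, while the difference of responses was 1.65 (95% interval 0.19 to 3.10, adjusted p = 0.891).

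Of the genes higher in the mean response, 3 encode a lysosomal protease and enzymes that modify lipids. Ctsd, the lysosomal aspartic protease cathepsin D (chromosome 7, 142375910 to 142387827), measured 26791, 25691 and 30123 normalized counts in IM, 44696, 42595 and 57045 in injIM, 11229, 11795 and 12669 in sNAM and 38224, 30457 and 47231 in injsNAM. Punched and unpunched libraries did not overlap in either population, the punched libraries of both spanned similar levels, and sNAM began lowest. The mean response was 1.23 (SE 0.23), adjusted p = 0.0353. Lpcat2, an acyltransferase that rebuilds membrane phospholipids, measured 636, 927 and 802 normalized counts in IM, 2004, 1646 and 1774 in injIM, 362, 958 and 1064 in sNAM and 3949, 5396 and 2286 in injsNAM. All injIM and injsNAM libraries lay above their unpunched counterparts, and the injsNAM libraries were the highest of all (mean response 1.65 (SE 0.29), adjusted p = 0.0353). B3gnt5, a glycosyltransferase that extends glycolipids, measured 62.5, 166 and 42.4 normalized counts in IM, 686, 762 and 809 in injIM, 0.963, 0 and 38.9 in sNAM and 334, 744 and 335 in injsNAM. It was near or below 1 in 2 sNAM libraries, and the responses were 2.22 and 2.28 (mean response adjusted p = 0.0393).

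Ctsd is a known target of the TFEB family of lysosomal regulators, which bind E-boxes such as CACGTG, and the window before its start is shown here from RefSeq on GRCm38.p6, 200 bases that end 50 bases before the start, with matches to CACGTG in capitals.
Ctsd promoter, chr7:142387878-142388077, - strand: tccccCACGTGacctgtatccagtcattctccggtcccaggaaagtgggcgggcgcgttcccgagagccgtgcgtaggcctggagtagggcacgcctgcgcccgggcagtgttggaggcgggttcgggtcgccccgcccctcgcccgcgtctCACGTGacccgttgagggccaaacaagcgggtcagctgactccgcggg
The matches begin 245 and 98 bases before the start. Entries were found for 9 of the 12 genes called higher in the mean response, and 1 of these 9 (Ctsd) holds CACGTG in its full RefSeq entry (250 bases before to 50 after the start, wider than the stretch shown), against 8.09% of all 27025 genes with an entry; a match of letters is a description and not a bound site.

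A pair of cell-surface proteoglycans and an integrin subunit were also called higher in the mean response. Sdc1, syndecan-1, a heparan sulfate proteoglycan (chromosome 12, 8771396 to 8793716), measured 447, 1039.7 and 527 normalized counts in IM, 3604, 3943 and 4697 in injIM, 751, 0 and 270.1 in sNAM and 1201, 1589 and 1929 in injsNAM. The injIM libraries stood highest, the injsNAM libraries stood above all sNAM libraries, and the responses were 2.51 (SE 0.23) and 2.38 (SE 0.88), a difference of -0.13 (95% interval -2.03 to 1.78). Gpc1, glypican-1, a lipid-anchored relative (chromosome 1, 92831645 to 92860211), measured 199, 319 and 71.7 normalized counts in IM, 855, 1171 and 804 in injIM, 75.1, 0 and 22.2 in sNAM and 853, 2185 and 1135 in injsNAM. Here the unpunched libraries of both populations were low and both punched groups reached a like level (mean response 2.66 (SE 0.53), adjusted p = 0.0412). Itgb5, the integrin beta 5 subunit of a vitronectin receptor (chromosome 16, 33829665 to 33949338), measured 646, 1021 and 761 normalized counts in IM, 2217, 2885 and 2419 in injIM, 777, 2224 and 1001 in sNAM and 4182, 4791 and 5498 in injsNAM. Groups did not overlap within either population, and injsNAM was highest (mean response 1.72 (SE 0.32), adjusted p = 0.0358).

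Rhov, an atypical small GTPase, measured 169, 164 and 105 normalized counts in IM, 686, 770.5 and 712 in injIM, 0, 0 and 294 in sNAM and 1157, 843 and 829.8 in injsNAM. Every unpunched library lay below every punched one (mean response adjusted p = 0.0201). Tmem8, a transmembrane protein gene, measured 463, 557 and 387 normalized counts in IM, 1071, 1290.1 and 1325 in injIM, 0, 239 and 11.1 in sNAM and 745, 699 and 669.7 in injsNAM (mean response adjusted p = 0.0353). Fam20c, the Golgi kinase that phosphorylates secreted proteins, measured 559, 782 and 362 normalized counts in IM, 1714, 1784 and 1903 in injIM, 780.4, 0 and 35.2 in sNAM and 2539, 3024 and 712 in injsNAM. It was called in the mean (adjusted p = 0.0486) although sNAM replicate 1 lay above injsNAM replicate 3. The 12th gene, Fam83f, has more than 1 row in the table and is left as uncertain.

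The 5 genes called lower in the mean response included a chemokine and surface proteins of antigen-presenting cells. Cxcl1, a chemokine that draws neutrophils (chromosome 5, 90891245 to 90893121), measured 33104, 31020.1 and 27167 normalized counts in IM, 15326, 12823 and 15833 in injIM, 55898, 50229 and 38050.2 in sNAM and 14529, 23927 and 19755 in injsNAM. Both punched groups lay below both unpunched groups, and the responses were -1.05 (SE 0.11) and -1.32 (SE 0.41) (mean response adjusted p = 0.0353). Cd81, a tetraspanin, measured 9993, 9276 and 10309 normalized counts in IM, 3219, 2684 and 1945 in injIM, 5901, 6218 and 7273 in sNAM and 2455, 2659 and 2451 in injsNAM. The punched groups met at a like level, from a higher start in IM than in sNAM (mean response -1.61 (SE 0.27), adjusted p = 0.0266). Cd83, a surface protein that stabilizes MHC class II on antigen-presenting cells, measured 38211, 34014 and 43722 normalized counts in IM, 19299, 16919 and 16001 in injIM, 74985, 82006 and 63221 in sNAM and 36618, 36854 and 29276 in injsNAM. Its level in sNAM was above that in IM, and the responses were -1.14 and -1.10, a difference of 0.05 (95% interval -0.86 to 0.96). Gpr183, an oxysterol receptor that guides leukocyte positioning, measured 3265, 1927 and 3333 normalized counts in IM, 1437, 1331 and 1638 in injIM, 8565, 8372 and 6763 in sNAM and 2036, 469.7 and 1188 in injsNAM, with responses of -0.87 and -2.78. Cd83 and Gpr183 are also expressed by dendritic cells, whose marker sum was lower in both punched groups. In the interstitial libraries that sum lay mainly in Cd209a. The part of dendritic cells in these values was not tested.

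Cxcl1 is a known target of NF-kappa-B, and its promoter window is shown in the same way, with matches to the kappa-B motif (GGG, any 2 bases, then TTTCC, on either strand) in capitals.
Cxcl1 promoter, chr5:90890995-90891194, + strand: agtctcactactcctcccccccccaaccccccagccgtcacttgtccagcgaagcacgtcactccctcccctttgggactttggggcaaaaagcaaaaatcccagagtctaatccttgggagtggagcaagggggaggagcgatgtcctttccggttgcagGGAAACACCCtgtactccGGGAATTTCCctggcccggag
The matches begin 89 and 71 bases before the start. Of genes called lower in the mean, 1 of the 4 genes with an entry (Cxcl1) holds the motif in the same full entry, against 1.89% of all genes with an entry.

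The call in the mean response was a fragile one for 15 of the 16 genes that have 1 row each (those above, with Siglecg and Tlr8, whose values follow): without sNAM replicate 1, sNAM replicate 3 or injsNAM replicate 1, 2 or 3 the number of calls fell to 1, 2, 1, 2 and 1, and without IM replicate 2 or injIM replicate 1 it was 44 and 26. In those fits the adjusted p of Ctsd was 0.0882 to 0.214, of Sdc1 0.0882 to 0.153 (and 0.0578 without sNAM replicate 2), of Cd81 0.0743 to 0.155 and of Cxcl1 0.082 to 0.214 where it was lost. Every named gene kept its direction in all of them.

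**Figure D3:**
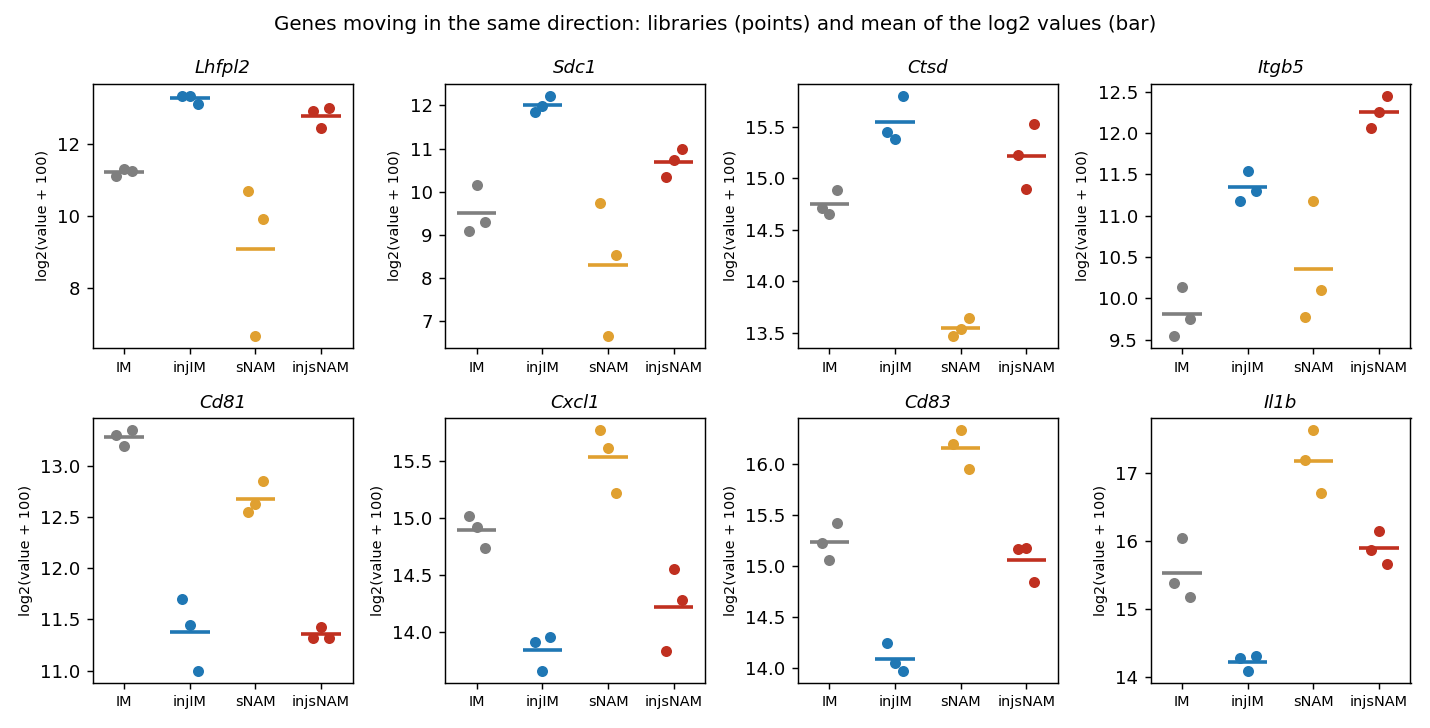
Normalized counts on a log axis in each of the 12 libraries for 8 genes that moved alike: Lhfpl2, Sdc1, Ctsd, Itgb5, Cd81, Cxcl1, Cd83 and Il1b. In each gene the 3 punched libraries lie on one side of the 3 unpunched ones in both populations.

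Further genes were separated without overlap in both populations, in the same direction, and were called in the interstitial response. Over all genes, 1.91% were so separated upwards and 1.33% downwards, and the 8 per direction with the largest smaller-sized response were chosen, of which several are described here. Tmem26, a membrane protein gene, had no read in any sNAM library and measured 75.7, 1148 and 381 in injsNAM; in interstitial macrophages it rose from 8.45, 63.6 and 4.32 to 336, 449 and 408 (log2 difference 2.01, adjusted p = 9.2e-06). Thbs1, thrombospondin-1, a matrix protein that activates latent TGF-beta, was among the most abundant transcripts and measured 11320.3, 51575 and 7392 normalized counts in IM, 87424, 94972 and 79641 in injIM, 79520.1, 61483 and 7614 in sNAM and 112020.0, 133346 and 99031 in injsNAM. IM replicate 2 and sNAM replicates 1 and 2 were high, and the responses were 2.41 (SE 0.50) and 1.76 (SE 1.91) (adjusted p = 0.00814 and 0.938). The call of Thbs1 was lost without injIM replicate 1 or 2 (adjusted p = 0.0676 to 0.0693).

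The 8 genes lower in both populations by this rule included inflammatory signals. Il1b, interleukin 1 beta, measured 42814, 67824 and 36842 normalized counts in IM, 19745, 17374 and 20335 in injIM, 150318, 203269 and 106870.0 in sNAM and 59825, 72912 and 51829.8 in injsNAM. Levels in both nerve-associated groups lay above those of the interstitial group of the same ear, while the responses were -1.31 (SE 0.16) (adjusted p = 2.72e-05) and -1.28 (SE 0.61) (adjusted p = 0.738), a difference of 0.03 with a 95% interval of -1.29 to 1.34. Ptger4, a receptor for prostaglandin E2, measured 1732, 2325 and 1534 normalized counts in IM, 603, 804 and 372 in injIM, 2407, 1124 and 3103 in sNAM and 1104, 879 and 152 in injsNAM, and its responses were -1.53 (adjusted p = 0.000212) and -1.68. Pdgfb, a growth factor for mesenchymal cells, measured 1243, 1309 and 1031 normalized counts in IM, 358, 515 and 538 in injIM, 2304, 3828 and 2185 in sNAM and 219, 1277 and 741 in injsNAM, with responses of -1.19 (adjusted p = 0.00038) and -1.96. Has1, a hyaluronan synthase, differed by -1.87 (adjusted p = 0.00024) and -1.38, Dnm1, a dynamin, by -1.32 (adjusted p = 0.000469) and -2.36, and Cpeb1, a regulator of messenger RNA polyadenylation, by -1.28 (adjusted p = 0.00173) and -1.17. Timd4, a phosphatidylserine receptor of resident macrophages, was far higher in nerve-associated libraries and measured 203, 119.8 and 440.0 normalized counts in IM, 57.5, 86.6 and 0 in injIM, 10898, 7924 and 12500.2 in sNAM and 3991, 1646 and 647 in injsNAM. It fell in interstitial macrophages (-1.20, adjusted p = 0.0118), and the nerve-associated value was -2.57 (unadjusted p = 0.0316). The call of Timd4 was lost without IM replicate 3 (adjusted p = 0.103).

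Opposite separation was rare: 24 genes (0.277%) lay apart upwards in interstitial and downwards in nerve-associated macrophages, and 24 (0.277%) the other way. Limiting these to genes called in the interstitial response, the 6 per direction with the largest difference between responses were chosen, and the difference itself passed correction by limma for none of them. Il7r, the interleukin 7 receptor alpha chain (chromosome 15, 9506159 to 9529941), measured 1323, 1543 and 1045 normalized counts in IM, 3906, 3639.6 and 2839.6 in injIM, 9149, 7842 and 5771 in sNAM and 4393, 5524 and 5059 in injsNAM. The interstitial response was 1.35 (SE 0.14), adjusted p = 4.22e-06, the nerve-associated one -0.58 (SE 0.53), and their difference -1.92 (SE 0.55), adjusted p = 0.742 by limma and 0.0436 by edgeR on the recovered reads. Il7r is also a T cell gene, and the T and NK cell marker list, which holds it, summed to 392 to 469.7 CPM in IM, 348 to 465 in injIM, 502 to 819.5 in sNAM and 401 to 883 in injsNAM. In the interstitial libraries that sum lay mainly in Il7r and in Cd4, which macrophages also express. Cd3e measured 15.2, 57.7 and 30.3 normalized counts in IM, 26.3, 8.09 and 15.9 in injIM, 1264, 49.5 and 1802 in sNAM and 2870.1, 78.4 and 1641 in injsNAM, and Nkg7 612.8, 0 and 1530.2 in sNAM and 1907, 0 and 2525 in injsNAM. These markers were low in both interstitial groups (Nkg7 at most 9.5) and in replicate 2 of both nerve-associated groups. They were high in the other nerve-associated libraries. The part of T cells in the Il7r values was not tested in any group.

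Gngt2, a G protein gamma subunit, measured 116, 88.4 and 57.1 normalized counts in IM, 396, 436 and 713 in injIM, 1123, 2297 and 1110.1 in sNAM and 532, 892 and 444 in injsNAM. IM and injIM stood apart upwards and sNAM and injsNAM downwards, so that the populations were nearer after injury than before. The responses were 1.69 (SE 0.19) (adjusted p = 1.29e-05) and -1.13 (SE 0.74), and the difference -2.82 (SE 0.76) (adjusted p = 0.742). Lpcat1, an acyltransferase related to Lpcat2, measured 440.0, 506 and 402 normalized counts in IM, 765, 774 and 1223 in injIM, 2557, 1872 and 1119 in sNAM and 289.6, 1098 and 201 in injsNAM, with responses of 0.87 (adjusted p = 0.00744) and -1.84. Its relative Lpcat2 was called higher in the mean response, as given above. Tes, the focal adhesion protein testin, measured 834, 673 and 896 normalized counts in IM, 1372, 1068 and 1053 in injIM, 7063, 5161 and 2888 in sNAM and 1785, 1009 and 2062 in injsNAM (responses 0.49, adjusted p = 0.0414, and -1.55). Cytip, a regulator of leukocyte adhesion, measured 2152, 2456 and 1289 normalized counts in IM, 3169.6, 2598 and 3784 in injIM, 32899, 10130.2 and 17557 in sNAM and 8384, 9200.1 and 5634 in injsNAM (responses 0.70, adjusted p = 0.0184, and -1.24). Ckb, the brain-type creatine kinase, differed by 1.41 (adjusted p = 0.00555) and -0.90, with injIM replicate 3 the highest library. For all 6 of these genes the sNAM libraries lay above the IM libraries, beside the higher dendritic cell marker sum in sNAM, whose part was not tested. The call of Lpcat1 was lost without IM replicate 3 (adjusted p = 0.0508). The call of Tes was lost without IM replicate 1 or 2 or 3, injIM replicate 1 or 2, sNAM replicate 2 (adjusted p = 0.0566 to 0.272). The call of Cytip was lost without IM replicate 3, injIM replicate 1 (adjusted p = 0.0842 to 0.134).

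Genes apart downwards in interstitial and upwards in nerve-associated macrophages followed. Clec4n, dectin-2, a receptor for fungal mannans, measured 12289, 12467 and 11606 normalized counts in IM, 8648, 8509 and 10257 in injIM, 4676, 5708 and 6961 in sNAM and 9937, 10177 and 12789.8 in injsNAM. The responses were -0.41 (SE 0.10) (adjusted p = 0.0151) and 0.92 (SE 0.39) (unadjusted p = 0.0289), and the difference was 1.33 (SE 0.40) (unadjusted p = 0.00377, adjusted p = 0.742). Gas6, the ligand that bridges dying cells to the TAM receptor kinases, measured 16925, 18842 and 17878 normalized counts in IM, 13124, 15166 and 12932 in injIM, 5075, 2853 and 5005 in sNAM and 6302, 5777 and 7693 in injsNAM. The interstitial libraries stayed well above the nerve-associated ones in both ears, and the responses were -0.38 (adjusted p = 0.0281) and 0.64. Mindy1, a deubiquitinase, measured 6836, 6119 and 5755 normalized counts in IM, 5009, 4249.9 and 4017 in injIM, 2420.2, 966 and 1439 in sNAM and 5482, 2799 and 5899.5 in injsNAM (responses -0.49, adjusted p = 0.0241, and 1.52, difference 2.01 (SE 0.52)).

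Dnaja2, a co-chaperone of Hsp70, differed by -0.46 (adjusted p = 0.0243) and 0.81, and Spats2 by -0.59 (adjusted p = 0.0397) and 2.41, the latter from 0, 0 and 118 in sNAM to 562, 575 and 639.7 in injsNAM. The difference of Spats2 was 3.00 (adjusted p = 0.485), and 0.0492 without the filter on low values. Spats2 had no read in sNAM replicates 1 and 2, in libraries where 11.6% and 25.8% of tested genes had none. The call of Clec4n was lost without IM replicate 1, injIM replicate 1 or 2 (adjusted p = 0.063 to 0.0959). The call of Gas6 was lost without IM replicate 1 or 2 or 3, injIM replicate 1 (adjusted p = 0.0543 to 0.147). The call of Mindy1 was lost without IM replicate 1, injIM replicate 2 (adjusted p = 0.0923 to 0.136). The call of Dnaja2 was lost without IM replicate 1 or 3, injIM replicate 2 or 3 (adjusted p = 0.0515 to 0.0886). The call of Spats2 was lost without IM replicate 1 or 2 or 3, injIM replicate 1 or 3 (adjusted p = 0.065 to 0.202).

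**Figure D4:**
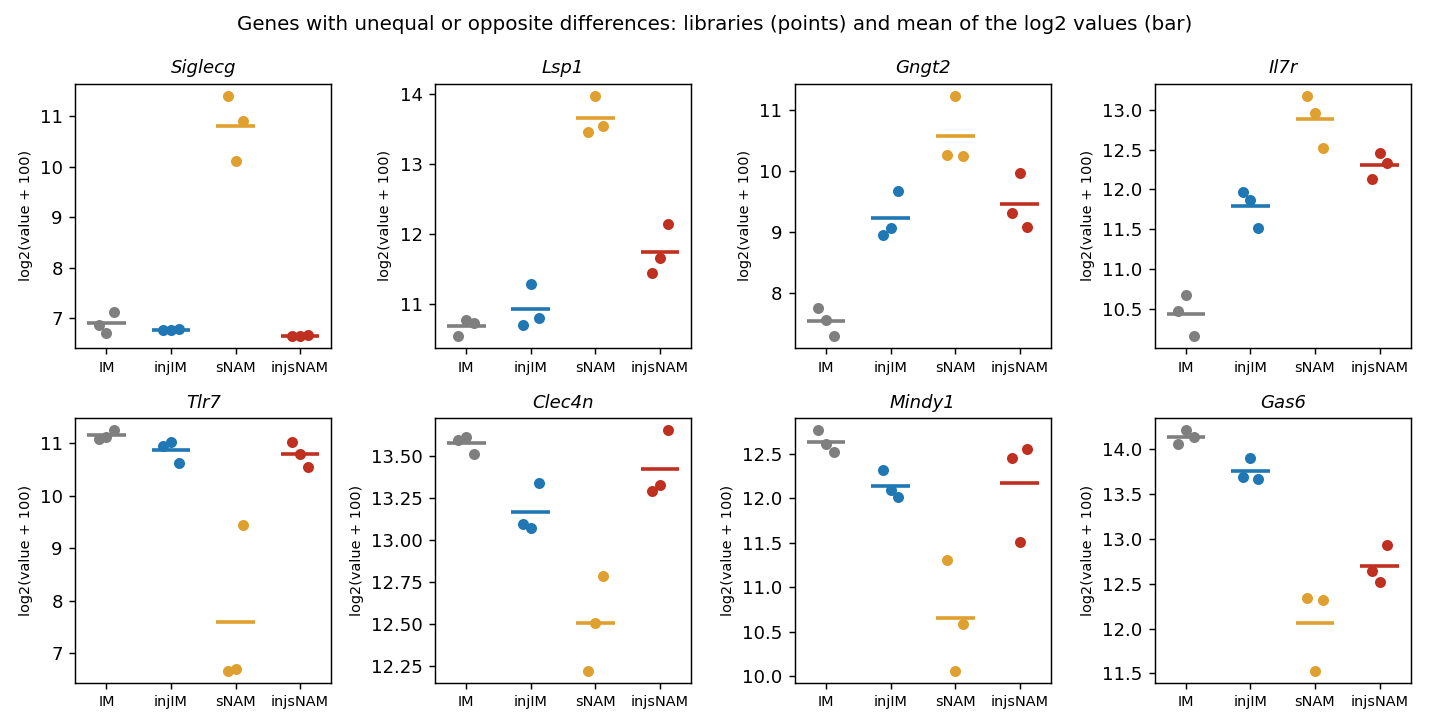
Normalized counts on a log axis in each of the 12 libraries for 8 genes with unequal responses: Siglecg, Lsp1, Gngt2, Il7r, Tlr7, Clec4n, Mindy1 and Gas6. In Siglecg and Lsp1 the injsNAM libraries lie below sNAM while IM and injIM overlap, and none of the 8 differences passed correction.

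Among genes with a group mean of 1000 or more, the smallest p-values for the difference are described next, and none of these genes passed. Siglecg, an inhibitory receptor for sialic acid (chromosome 7, 43408192 to 43418349), measured 16, 4.38 and 39.8 normalized counts in IM, 8.21, 8.09 and 10.6 in injIM, 2627, 1004 and 1817 in sNAM and 0, 0 and 0.856 in injsNAM. It was high in all 3 sNAM libraries and low or without reads everywhere else, and the difference was -4.03 (SE 0.73) with a 95% interval of -5.55 to -2.51, unadjusted p = 2.44e-05 and adjusted p = 0.211. Its adjusted p for the difference was 0.036 by edgeR, 0.0187 with 1 pooled spread and 0.02 without the filter on low values. The mean response of -2.15 (adjusted p = 0.0266) came from the nerve-associated value of -4.16, the interstitial one being -0.13. Lsp1, an actin-binding leukocyte protein, measured 1397, 1649.8 and 1604 normalized counts in IM, 1571, 2399.7 and 1698 in injIM, 11097, 16010.5 and 11780.5 in sNAM and 2699, 3147 and 4430.0 in injsNAM. The sNAM libraries were the highest, IM and injIM overlapped, and the difference was -2.15 (SE 0.56), adjusted p = 0.742 by limma, 0.0436 by edgeR and 0.0441 with 1 pooled spread.

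Dusp14, a phosphatase of MAP kinases, measured 156, 20.5 and 78.7 normalized counts in IM, 109, 110.1 and 197 in injIM, 5509, 1747 and 4150.1 in sNAM and 609.9, 209 and 0 in injsNAM, a difference of -4.07 (SE 1.03), and L1cam, a neural adhesion molecule, measured 192, 181 and 177 normalized counts in IM, 340.0, 418 and 204 in injIM, 1747, 376 and 1197 in sNAM and 0, 56.9 and 0 in injsNAM, a difference of -3.70 (SE 0.91). The sNAM libraries of Dusp14 lay above all other libraries, while sNAM replicate 2 lay within the injIM range for L1cam. Lemd3, an inner nuclear membrane protein, and Pnrc2, a cofactor of messenger RNA decay, differed by -2.83 (SE 0.71) and -1.95 (SE 0.53), from sNAM levels of 1684, 1234 and 973 and 1869, 5039 and 2402 to injsNAM levels of 155, 132 and 44.5 and 727, 937 and 617. The dendritic cell marker sum was lower in injsNAM than sNAM, as these genes were. Of its 10 tested members, 4 lay apart downwards in nerve-associated macrophages and 1, Xcr1, upwards, against 4.69% and 7.35% of all tested genes. Ccr7 measured 41049.6, 17585 and 21785 in sNAM and 11463, 5110.4 and 4440.2 in injsNAM, and Flt3 measured 1939, 3441 and 1659.7 in sNAM and 682, 164 and 157 in injsNAM. Xcr1 measured 171, 0 and 126 in sNAM and 192, 1056 and 224 in injsNAM. The part of dendritic cells in these differences was not tested.

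On the other side, 7 of the 8 genes with the smallest p-values had no read, or fewer than 1 normalized count, in at least 1 sNAM library, while the eighth, Mindy1 (described above), had reads in all 3. Tlr7, the endosomal sensor of single-stranded RNA, measured 2075, 2135 and 2333 normalized counts in IM, 1887, 1984 and 1484 in injIM, 0.963, 2.91 and 592 in sNAM and 1981, 1689 and 1393 in injsNAM. The injsNAM libraries lay at the level of the interstitial ones and sNAM far below (difference 3.48 (SE 0.78), unadjusted p = 0.000276, adjusted p = 0.485). Its neighbour on the X chromosome Tlr8, a sensor of the same class, measured 551, 646 and 628 normalized counts in IM, 703, 811 and 653 in injIM, 0, 0 and 113 in sNAM and 697, 1133 and 1449 in injsNAM. As with Tlr7, sNAM lay far below the other groups (difference 2.95 (SE 0.66), adjusted p = 0.485). The injIM libraries lay above IM for Tlr8 and below IM for Tlr7. For Tlr8, injsNAM replicates 2 and 3 also lay above every interstitial library. Tlr8 was also called in the mean response (1.69, adjusted p = 0.0393), from a nerve-associated value of 3.16 and an interstitial one of 0.21. Sumf1, the enzyme that activates sulfatases, measured 0, 0 and 544 in sNAM and 985, 2140.5 and 1163 in injsNAM, and Anapc7, a subunit of the anaphase-promoting complex, 232, 0 and 437 and 1521, 1057 and 2140.1. In IM and injIM both were between 918 and 1873. Arhgap1, Snapin and Sh3bp4 differed by 2.82, 2.35 and 2.64 in the same direction, each with no read in sNAM replicate 2. Of the 319 genes with an unadjusted p under 0.05 on this side, 57 had no read in at least 2 sNAM libraries, as did 719 (8.31%) of all tested genes; loss of low transcripts in these libraries and lower expression cannot be told apart.

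A subset of genes stayed within narrow bounds in interstitial macrophages while the nerve-associated libraries were apart. The 95% interval of the interstitial response lay within 0.5 log2 units of 0 for 2475 genes, of which the injsNAM libraries lay above all sNAM libraries for 211 (8.53%) and below for 119 (4.81%), near the shares over all tested genes (7.35% and 4.69%). Faah, the fatty acid amide hydrolase that degrades endocannabinoids, measured 38, 19.7 and 0 normalized counts in IM, 11.5, 3.24 and 19 in injIM, 0.963, 0 and 0 in sNAM and 513, 259.8 and 732 in injsNAM, so that injsNAM alone held appreciable reads. Nlrc4, an inflammasome sensor of bacterial proteins, measured 247, 197 and 312 normalized counts in IM, 260.4, 220.1 and 217 in injIM, 0.963, 2.91 and 31.5 in sNAM and 247, 979 and 504 in injsNAM. Reads were close to absent in sNAM, and injsNAM replicate 1 lay within the interstitial range. Apeh, a serine peptidase, and Zfyve16, an endosomal protein, went from 6.74, 0 and 0 and 225, 0 and 0 in sNAM to 1171, 432 and 367 and 744, 1298 and 789.6 in injsNAM. In the other direction, Rbp4, a retinol carrier, measured 6.76, 2.19 and 10.4 normalized counts in IM, 0, 0 and 9.87 in injIM, 721, 291 and 322 in sNAM and 72.2, 0 and 119 in injsNAM. Cstf3, Tnrc6c and Zbtb17 had nerve-associated log2 differences of -2.16, -1.83 and -1.79. None of these nerve-associated values passed correction, and they were chosen by their size.

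Conversely, 86 of the 359 genes called higher and 99 of the 349 called lower in interstitial macrophages had a nerve-associated log2 difference within 0.3 of 0. The share of all tested genes within that bound was not counted, and the median standard error of the nerve-associated response was 0.75. These numbers thus do not show a set of genes that changed in interstitial macrophages alone. Thbd, thrombomodulin, an anticoagulant receptor, measured 8465, 12214 and 6544 normalized counts in IM, 3156, 2884 and 3344 in injIM, 2680.3, 1176 and 1404 in sNAM and 1652, 1219.8 and 2490.3 in injsNAM. It fell in interstitial macrophages (-1.46 (SE 0.20), adjusted p = 7.59e-05) to just above the nerve-associated levels, with a nerve-associated value of 0.06 (SE 0.75) and a difference of 1.52 (95% interval -0.11 to 3.14). Itgb7, an integrin subunit for mucosal homing, measured 765, 1295 and 513 normalized counts in IM, 2129.8, 2965 and 2222 in injIM, 4060.0, 2285 and 2374 in sNAM and 1854, 1850.2 and 3684 in injsNAM, and rose in interstitial macrophages (1.47, adjusted p = 0.000206) to the nerve-associated level. Mefv, which encodes the inflammasome sensor pyrin, measured 1175, 902 and 496 normalized counts in IM, 2478, 2726 and 2616 in injIM, 2734, 9076 and 1963 in sNAM and 5443, 6724 and 2202 in injsNAM (interstitial response 1.57, adjusted p = 0.000145). In these genes the interstitial groups were apart, and the nerve-associated groups overlapped.

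Ptges, the inducible prostaglandin E synthase, rose in interstitial macrophages (1.87, adjusted p = 0.000317), as did the integrin subunit Itga6 (1.56, 0.00496), the elastase Mmp12 (1.53, 0.00528) and the coenzyme Q biosynthesis gene Coq8a (1.52, 0.00288), with nerve-associated values of -0.30, -0.12, -0.14 and 0.10. Ccl24, an eosinophil chemokine, fell (-1.94, adjusted p = 0.00338), as did the lectins Siglech (-1.55, 0.00337), Cd209f (-1.42, 0.00323) and Cd207 (-1.30, 0.0263) and the actin-capping Tmod1 (-1.27, 0.000461), where nerve-associated values were 0.02, -0.24, -0.23, 0.29 and -0.13. The numbers after the second and later names are the log2 difference and the adjusted p. The interval of the difference held 0 for each, so a nerve-associated response of the interstitial size lay inside what these libraries allow for any of them. The call of Mmp12 was lost without IM replicate 3 (adjusted p = 0.0508). The call of Cd207 was lost without IM replicate 1 or 2, injIM replicate 1 or 2 (adjusted p = 0.0655 to 0.188).

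Gene lists, chosen with earlier results of these data known, describe which functions moved alike. Their counts stand beside the shares over all tested genes, of which 4.15% were called higher and 4.03% lower in injIM, and 7.35% lay apart upwards and 4.69% downwards in nerve-associated libraries, with the same sign in 74.0% of called genes. Of 25 tested genes for lipid handling and damage response, 13 rose and 0 fell in injIM, all 13 had the same sign in the nerve-associated response, and injsNAM lay above sNAM without overlap for 9 of the 25. The list median was 0.46 in interstitial and 0.66 in nerve-associated macrophages, against 0.03 and 0.14 over all tested genes. Apoe, the lipid carrier, was among the most abundant transcripts and measured 136960.0, 126033 and 141133 normalized counts in IM, 176090.0, 171331 and 239738 in injIM, 61029.6, 37275 and 97735 in sNAM and 217168, 200984 and 321869 in injsNAM. It rose in interstitial macrophages (0.52 (SE 0.14), adjusted p = 0.0207), the nerve-associated value was larger at 1.99 (SE 0.52) (unadjusted p = 0.00122), and the difference was 1.47 (unadjusted p = 0.0138, adjusted p = 0.839). Gpnmb, a lysosomal glycoprotein, measured 5096, 10423 and 5911 normalized counts in IM, 19708, 27451 and 15979 in injIM, 2033, 326 and 1075 in sNAM and 6099, 4115 and 9318 in injsNAM (interstitial response 1.58, adjusted p = 0.000145, nerve-associated 2.62). Fabp5, a fatty acid binding protein, measured 2926, 2823 and 2489 normalized counts in IM, 7675, 5737 and 10526 in injIM, 1548, 1429 and 2178 in sNAM and 4476, 6417 and 6299 in injsNAM (interstitial response 1.47, adjusted p = 4.91e-05, nerve-associated 1.68). The protease Ctsl and the cholesterol ester hydrolase Nceh1 also rose in injIM, by 0.94 and 0.58, and had nerve-associated values of 1.74 and 1.02, apart in both populations. Cd9, a tetraspanin, lay apart downwards in nerve-associated libraries, from 10828, 9734 and 9527 in sNAM to 3920.2, 3796 and 5372 in injsNAM, with responses of 0.19 and -1.20, neither called. The call of Apoe was lost without IM replicate 1 or 3, injIM replicate 3 (adjusted p = 0.0534 to 0.0662).

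Of 22 tested inflammatory cytokines and chemokines, 0 rose and 12 fell in injIM, 11 of the 12 had the same sign in nerve-associated macrophages, and injsNAM lay below sNAM without overlap for 4 of the 22 (over all genes 4.03% called lower and 4.69% apart downwards). The list medians were -0.81 and -0.62. Ccl2, the monocyte chemoattractant, measured 85744, 66142 and 76319 normalized counts in IM, 21596, 16647 and 15758 in injIM, 20580.2, 30362 and 44041 in sNAM and 9929, 16474 and 21515 in injsNAM. The fall in interstitial macrophages (-2.08 (SE 0.17), adjusted p = 4.65e-07) began from a higher level than in sNAM, the nerve-associated groups overlapped (-0.98 (SE 0.64)), and the difference was 1.09 (95% interval -0.30 to 2.49). Interleukin 1 alpha, Il1a, fell by 2.19 on the log2 scale in interstitial macrophages (adjusted p = 1.26e-06), with a nerve-associated value of -1.18, and the neutrophil chemokine Cxcl2 by 0.88 (adjusted p = 0.000289), with -0.96. The macrophage inflammatory protein gene Ccl3 and interleukin 6, Il6, had interstitial values of -1.06 and -1.21 (adjusted p = 0.000617 and 0.00128) and nerve-associated values of -1.36 and -1.25. Osm, oncostatin M, was the called gene with the other sign, at -0.76 (adjusted p = 0.0309) and 0.15. Immediate-early genes, which also mark stress during cell dissociation, moved with these: 0 of 19 rose and 9 fell in injIM, 7 of the 9 with the same sign in nerve-associated macrophages, where 7 of 19 lay apart downwards. Nr4a1, an immediate-early nuclear receptor, measured 14074, 19102 and 14746 normalized counts in IM, 5053, 5550.5 and 3819 in injIM, 13918, 10186 and 8476 in sNAM and 6159, 4197 and 6062 in injsNAM (interstitial response -1.72, adjusted p = 3.71e-06, nerve-associated -0.97). The part of dissociation stress in the cytokine values was not tested. The call of Osm was lost without IM replicate 1 or 2, injIM replicate 1 or 2 (adjusted p = 0.0996 to 0.16).

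Of 22 tested perivascular and interstitial macrophage genes, 0 rose and 15 fell in injIM, 8 of the 15 had the same sign in nerve-associated macrophages, and the medians were -0.79 and -0.12, with 0 of 22 called in the difference. Cd209b, a C-type lectin, measured 7009, 4389.8 and 8242 normalized counts in IM, 2337, 1782 and 758 in injIM, 580.0, 0 and 1425 in sNAM and 0, 1843 and 91.6 in injsNAM (interstitial response -2.03, adjusted p = 0.0012, nerve-associated -0.49). Mrc1, the mannose receptor, measured 34979, 37372 and 42855 normalized counts in IM, 30983, 28234 and 19587 in injIM, 13014, 8419 and 17803 in sNAM and 20804, 10545 and 12538 in injsNAM (interstitial response -0.57, adjusted p = 0.0153, nerve-associated 0.16). Cbr2, a carbonyl reductase of tissue macrophages, had responses of -0.76 (adjusted p = 0.00476) and 0.00, and Folr2, a folate receptor, of -0.86 (adjusted p = 0.0175) and 0.94. All 4 of these genes were lower in every sNAM library than in every IM library. Other called members had a larger negative value in nerve-associated macrophages: Timd4, given above, and Lyve1, a hyaluronan receptor, with responses of -1.42 (adjusted p = 0.0395) and -2.37 (SE 1.60). Lyve1 measured 438, 1567 and 1336 normalized counts in IM, 539.6, 467 and 85.8 in injIM, 0, 2003 and 777 in sNAM and 31.7, 0 and 0.856 in injsNAM, with overlap in both populations, and its call was lost without IM replicate 2 or 3 or injIM replicate 3 (adjusted p = 0.12 to 0.187). The median difference of the list was 0.75, against 0.14 over all tested genes, and no test compared the list with other genes. The call of Mrc1 was lost without IM replicate 3 (adjusted p = 0.106). The call of Folr2 was lost without IM replicate 1 or 3, injIM replicate 1 or 2 (adjusted p = 0.0502 to 0.124).

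Matrix and wound repair genes were mixed: of 24 tested, 6 rose and 4 fell in injIM, 8 of the 10 with the same sign in nerve-associated macrophages. Mmp14, a membrane-bound metalloproteinase, measured 1964, 4603 and 1867 normalized counts in IM, 6713, 8658 and 9826 in injIM, 5418, 3420.4 and 3739 in sNAM and 6906, 10569.9 and 8979 in injsNAM and lay apart upwards in both (interstitial response 1.65, adjusted p = 0.000101, nerve-associated 1.06). Cav1, caveolin 1, measured 272, 524 and 285 normalized counts in IM, 5009, 6480.4 and 3484 in injIM, 0, 0 and 507 in sNAM and 34.3, 675 and 679 in injsNAM, with responses of 3.47 (SE 0.30) (adjusted p = 7.24e-07) and 1.25 (SE 1.14). It was highest in injIM and at most 679 in injsNAM, and the difference was -2.22 (95% interval -4.68 to 0.25, unadjusted p = 0.075). Mmp9, gelatinase B, measured 363, 423 and 402 normalized counts in IM, 8654, 16010.4 and 59304 in injIM, 5.78, 0 and 70.3 in sNAM and 229, 66.7 and 2679.6 in injsNAM (interstitial response 5.36 (SE 0.53), adjusted p = 1.02e-05, nerve-associated 2.13 (SE 2.04)). Mmp9 is also a neutrophil gene, and the neutrophil marker list, which holds it, summed to 101 to 140.3 CPM in IM, 612, 1099.6 and 3663 in the injIM replicates 1, 2 and 3, 277 to 419 in sNAM and 184 to 395 in injsNAM, a sum that Mmp9 itself mostly makes up in injIM. Of the other neutrophil markers, Csf3r measured 1556, 1412 and 1209 normalized counts in IM and 1575, 1775 and 1277 in injIM, S100a8 measured 20.3, 15.3 and 7.78 in IM and 59.96, 70.4 and 51.6 in injIM, and Ly6g and Ltf had no read in any of these libraries.

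Of the glycolysis and hypoxia genes, 7 of 20 rose and 0 fell in injIM, all 7 had the same sign in nerve-associated macrophages, and injsNAM lay above sNAM without overlap for 5 of 20 (over all genes 4.15% called higher and 7.35% apart upwards). Hilpda, a hypoxia-inducible inhibitor of lipolysis, measured 2308, 3229 and 1789 normalized counts in IM, 4839, 4459 and 8057 in injIM, 1377, 3123 and 2281 in sNAM and 6469.9, 4278 and 7546 in injsNAM (interstitial response 1.20, adjusted p = 0.000608, nerve-associated 1.43), and Hif1a, the oxygen-sensing transcription factor, had responses of 0.73 (adjusted p = 0.00737) and 0.99. No cell cycle gene of 21 tested was called in either population, and all 21 had equal signs in both, with medians of 0.27 and 1.03. Ccna2, cyclin A2, had no read in any sNAM library and measured 427, 1149 and 367 in injsNAM, beside 128, 339 and 188 in IM and 207, 259.8 and 342 in injIM. The difference of this gene was 2.50 (adjusted p = 0.932 by limma and 0.0436 by edgeR). Rrm1, a ribonucleotide reductase subunit for DNA synthesis, measured 392, 758 and 666 normalized counts in IM, 536, 785 and 985 in injIM, 1483, 0 and 183 in sNAM and 1899, 2153 and 2801 in injsNAM (difference 2.42, unadjusted p = 0.0271). The call of Hif1a was lost without IM replicate 3, injIM replicate 2 (adjusted p = 0.0536 to 0.0551).

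TGF-beta pathway genes divided evenly by sign: of 26 tested, 6 rose and 0 fell in injIM, and 3 of the 6 had the same sign in nerve-associated macrophages. Bhlhe40, a transcription factor of activated macrophages, measured 2569, 3130.1 and 2368 normalized counts in IM, 6972, 6866 and 8011 in injIM, 5364, 8541 and 4346 in sNAM and 4255, 5873 and 3467 in injsNAM. It rose in interstitial macrophages (1.41 (SE 0.13), adjusted p = 1.95e-06), while the nerve-associated groups overlapped at -0.39 (SE 0.51). The difference was -1.80 (SE 0.53) (95% interval -2.92 to -0.69, unadjusted p = 0.00308, adjusted p = 0.742). Itgav, the integrin that frees latent TGF-beta, had responses of 1.14 (adjusted p = 0.000204) and -0.06, and Id3, an inhibitor of helix-loop-helix factors, of 0.86 (adjusted p = 0.00347) and 1.35. Id3 lay apart upwards in both populations and Itgav in the interstitial one, its nerve-associated groups overlapping.

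The remaining lists differed in how many genes were called. Over all tested genes 4.15% were called higher and 4.03% lower, with equal sign in 74.0% of them. Monocyte-derived macrophage genes had 4 of 17 higher and 0 lower in injIM, 3 of the 4 with equal sign, and medians of 0.25 and -0.35. Plbd1, a phospholipase-like lysosomal protein, was the gene with the other sign, at 0.91 (adjusted p = 0.0151) and -0.70, and it lay apart downwards in nerve-associated libraries, from 12257, 6914 and 6071 to 4732, 4657 and 5302. Alternative activation genes had 3 of 16 higher and 6 lower, 7 of the 9 with equal sign, and complement and phagocytic receptor genes 3 of 22 higher and 5 lower, 5 of the 8 with equal sign. Arg1, arginase 1, and Tgm2, transglutaminase 2, rose in injIM by 1.55 and 1.54 (adjusted p = 0.00128 and 9.2e-06) and had nerve-associated values of 0.76 and 0.75. C5ar1, the receptor for complement C5a, was apart downwards in both (responses -1.02, adjusted p = 4.22e-06, and -0.51). Genes of microglia-like and nerve-associated macrophages had 3 of 14 higher and 4 lower, all 7 with equal sign, and MHC class II and antigen presentation genes 0 of 7 higher and 3 lower, all 3 with equal sign. The 7 tested were Cd74, Ciita, Cd80, Cd86, Cd40, Cd83 and Ctss, so no H2 gene of MHC class II was tested. Of the 14 genes on that list, 6 had no read in any IM library. In injIM, sNAM and injsNAM 7 of the 14 had none. Type I interferon genes had 2 of 20 higher and 1 lower, 1 of the 3 with equal sign, and iron, haem and lysosome genes 1 of 21 higher and 0 lower, with equal sign, and these last lists lay nearest to the shares over all genes. The call of Plbd1 was lost without IM replicate 3, injIM replicate 1 or 3 (adjusted p = 0.057 to 0.124).

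**Figure D5:**
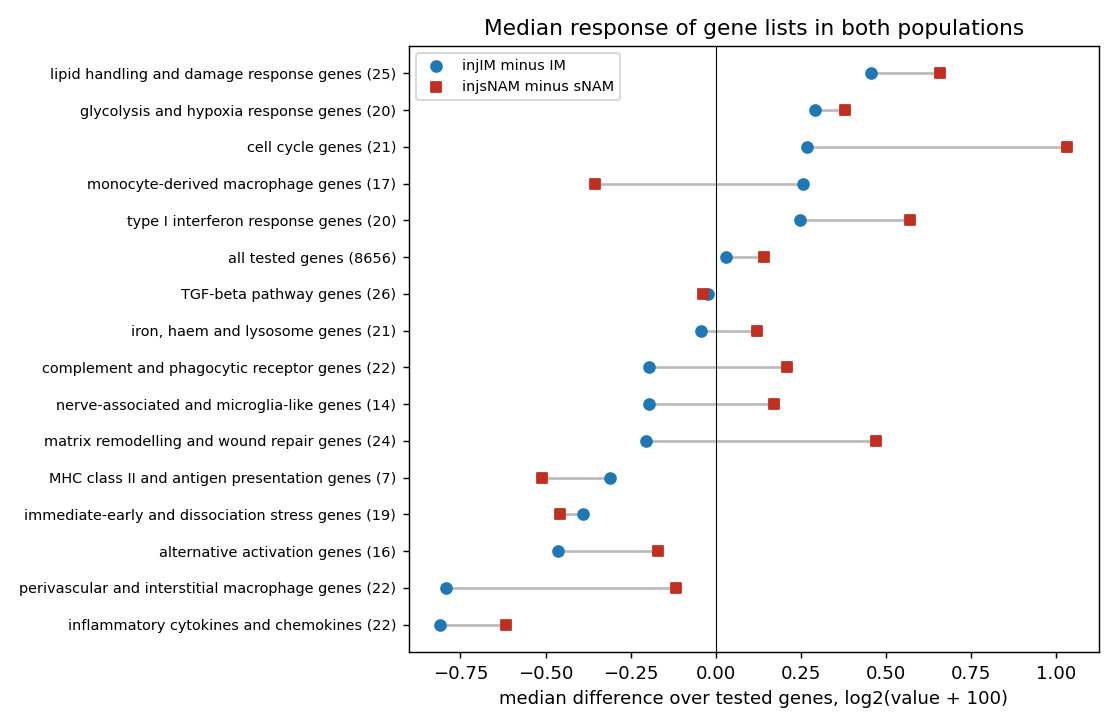
Median log2 difference of the tested genes of each pathway list in interstitial and in resident nerve-associated macrophages, with the same medians over all 8656 tested genes. The lipid handling list lies at 0.46 and 0.66, the inflammatory list at -0.81 and -0.62 and the perivascular list at -0.79 and -0.12.

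Markers of other cell types were read in the same fits. Over all tested genes, 4.03% were called lower in injIM, and 4.69% lay apart downwards and 7.35% upwards in nerve-associated libraries. Of 9 tested mast cell markers, 8 fell in injIM and 8 of the 8 had the same sign in nerve-associated macrophages. The list of 12 summed to 598 to 809 CPM in IM, 276 to 282 in injIM, 0.161, 2082 and 167 in sNAM replicates 1, 2 and 3 and 38.1, 15.4 and 201 in injsNAM. The mast cell level in sNAM thus lay mostly in replicate 2. Of 10 tested dendritic cell markers, 3 fell in injIM, all 3 with equal sign, and 4 lay apart downwards and 1 (Xcr1) upwards in nerve-associated macrophages. Fibroblast markers summed to 270.3 to 1096 CPM in IM and injIM and to 0.355 to 59.9 in sNAM and injsNAM, and 0 of 6 tested were called. Schwann cell markers summed to at most 39.6 CPM in any library.

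Levels in the punched ear were, for most genes, nearer between the populations than in the unpunched ear. The log2 distance of injsNAM from injIM was smaller than that of sNAM from IM for 5448 of 8656 genes (62.9%), and for 373 of the 444 genes with an unadjusted p under 0.05 for the difference. The 444 genes were picked by a contrast of these same distances, so the number 373 cannot serve as support for nearer levels. sNAM had the largest share of genes with no read and the widest spread (group weight 0.175, the lowest). The part of either in these distances was not tested.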

How the data were processed

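Macrophages sorted from ear skin were profiled by RNA-seq, with cDNA made from 250 pg of RNA and 13 PCR cycles, per the labels' protocols. The submitters' processing notes name STAR 2.7.2b, DESeq2 1.24.0, R 3.6.1, bcl2fastq 2.18, cutadapt and build mm10. Counter, annotation and strandedness were not given in the sources used here, so overlapping and antisense genes cannot be told apart. The deposited signal holds counts that the authors scaled by a factor for each library, as the values show. Dividing each library by its smallest value above 0 gave whole reads, to within 0.01, for 100% of values. Reads carry no molecular identifiers. The table holds 42454 rows, 1738 symbols are listed more than once, and 8566 of the 8656 tested genes matched RefSeq GRCm38.p6 by symbol, from which coordinates come.

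The test was limma-trend 3.58.1 with robust empirical Bayes on log2(value + 100), for genes with a mean of 100 or more over 15 libraries, with 1 mean for each group and group weights of 3.43 (IM), 3.21 (injIM), 0.175 (sNAM), 0.311 (injsNAM) and 1.67 (recruited), and Benjamini-Hochberg adjustment over all genes, called at 0.05, and the mean response is the average of both responses. edgeR 4.0.16, DESeq2 1.42.0 and voom on recovered reads, other pseudocounts, filters and scaling, a replicate block and each library left out were alternatives. The members and lists were chosen with earlier results of these data known. The text names genes listed once: the 8 per direction with the smallest p for the difference at a group mean of 1000 or more, 8 per direction apart alike in both populations with the largest smaller response, 6 per direction apart in opposite directions with the largest difference, 6 per direction large in 1 population alone and called list members; some genes these rules name are not reported here. Lists were tested for nothing beyond their genes: B cell and endothelial lists had 0 tested genes, Langerhans cell markers 1 of 3 higher and 1 lower, T and NK cell markers 1 of 6 higher and 1 lower, keratinocyte and Schwann cell markers 0 of 2 and 0 of 1, neutrophil markers 1 of 3 higher and pan-macrophage markers 2 of 13 higher and 3 lower in injIM. The fits were tested on simulated data.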

Additional observations from a re-analysis of the deposited data

How the results depend on the processing

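Calls depended strongly on how the unequal spread of the populations was modelled. The difference between responses gave 0 calls by limma and with pseudocounts of 10 or 1, TMM scaling, voom, 12 libraries alone and every library left out, but 6 without the filter on low values, 4 with 1 pooled spread, 7 by edgeR and 803 by DESeq2. The interstitial response gave 708 calls, and 315 without the filter, 384 at a mean of 1000 or more, 18 with 1 pooled spread, 3 by edgeR, 80 by DESeq2 and 399 to 826 with 1 library left out. The nerve-associated response gave 0, and 4 without the filter, 1 at a mean of 1000 or more, 363 with 1 pooled spread, 111 by edgeR, 1862 by DESeq2 and 0 with 1 library left out. The mean response gave 17 (12 higher, 5 lower), 0 with either smaller pseudocount, 45 at a mean of 1000 or more, 175 with 1 pooled spread, 104 by edgeR, 8 by voom (2 higher, 6 lower), 1223 by DESeq2 and 1 to 44 with 1 library left out. Genes called in the interstitial response had equal sign in 67.1% to 81.4% with 1 library left out. Of these, the number apart alike in nerve-associated libraries was 162, and 189 to 252 with 1 nerve-associated library left out, a setting added after seeing the data. The cause of these changes was not tested. Deviations from the group mean of same-numbered libraries correlated at 0.102, 0.227 and 0.0411 for IM with injIM and at 0.0319, 0.0291 and 0.0559 for sNAM with injsNAM. Those of different-numbered libraries correlated at -0.179 to 0.109 and at -0.0438 to 0.00349. These values do not settle whether equal numbers mean a shared mouse. The labels do not tie a library to a mouse, so the main fit left libraries unpaired. With a replicate block the difference gave 0 calls, the interstitial response 928, the nerve-associated response 0 and the mean 49. With TMM scaling the interstitial calls divided 333 higher to 404 lower, against 359 to 349. Pseudocounts of 10 and 1 moved the median difference of all genes from 0.14 to 0.24 and 0.28, and it was 0.02 without sNAM replicate 2. Of 4177 values of 185 gene results under an alternative, 3264 kept direction and side of the threshold, 879 lost and 34 gained a call, and none reversed. The spread and the reads missing from sNAM libraries limit what can be detected.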
